A study of Homo sapiens with 15 samples.

Results

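The 43 genes described here serve DNA replication and mitosis and are the members of a list of gene names. The S-phase genes number 22: 12 that license replication origins or form the helicase (MCM2 to MCM7, MCM10, CDC6, CDT1, CDC45, GINS1 and GINS2), 5 of the fork and of nucleotide supply (PCNA, POLA1, RRM1, RRM2 and TYMS) and 5 regulators of entry into S phase (E2F1, E2F2, CCNE1, CCNE2 and CCND1). The mitotic genes number 21: 6 cyclins, CDK1 and its activators (CCNA2, CCNB1, CCNB2, CDK1, CDC25C and FOXM1), 6 mitotic and checkpoint kinases (PLK1, AURKA, AURKB, BUB1, BUB1B and TTK), 2 genes of the anaphase-promoting complex (CDC20 and UBE2C) and 7 genes of chromosomes, kinetochores and motors (TOP2A, MKI67, CENPE, CENPF, KIF11, KIF20A and BIRC5). All 43 were found among the 18417 symbols of the array and all 43 passed the filter on dim genes, which left 16872 genes.

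A cell that enters the cycle first makes D-type cyclins, whose kinases phosphorylate the retinoblastoma protein and release E2F factors. E2F then drives cyclin E, the licensing factors that load the MCM helicase onto origins, and the enzymes that make deoxynucleotides. Genes of mitosis peak later and are driven largely by the MuvB complex with B-MYB and FOXM1, often through promoter elements called CHR and CCAAT. MH7A is a synovial fibroblast line from a patient with rheumatoid arthritis that was immortalised with a viral large T antigen, a protein that binds the retinoblastoma protein. Fibroblast-like synoviocytes that proliferate are a known feature of the inflamed joint.

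Total RNA of MH7A cells was hybridised to 15 Affymetrix Human Gene ST arrays, with 5 conditions in each of 3 separate experiments. Cells were given interleukin-1β (IL-1β) with both glucosamine (GlcN) and alloxan, IL-1β with GlcN, IL-1β with alloxan, IL-1β alone, or nothing (resting). Alloxan, an inhibitor of O-GlcNAc transferase, went on first at 5 mM, and was lowered after 30 min to 2 mM. GlcN was at 5 mM, and IL-1β followed it by 2.5 h, at 15 pg/ml for 13 h. For cells given alloxan without GlcN no other dose is stated. All arrays come from this 1 line, so no donor differs among them.

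The deposited values are log2 signals, 1 log2 unit being a doubling. The array medians lay between 6.18 and 6.21 in experiment 1, between 7.14 and 7.19 in experiment 2 and between 7.49 and 7.54 in experiment 3, so each condition was set against its control within an experiment. The test was limma with the experiment as a block over all 15 arrays, with Benjamini-Hochberg adjustment over the 16872 genes and a threshold of 0.05. Without the block no member passed in any comparison, beside 0.0237% of all genes with GlcN, 0.00593% with both agents, each against IL-1β, 0.0356% over all 5 conditions and 0% in the other comparisons. No member had an unadjusted p under 0.05 in that fit, beside 0.00593% to 0.427% of all genes. With the block but only the arrays of the conditions compared, again no member passed in any comparison, beside 0.00593% of all genes with GlcN, 0% with alloxan and 1.64% with both agents, each against IL-1β, 0.0652% for the interaction and 0% elsewhere. At an unadjusted p under 0.05 that fit gave 6 to 17 members in the comparisons of a pair of conditions, beside 7.28% to 20.3% of all genes. For the interaction it gave 4 members, beside 10.1% of all genes. The methods' t-test, run on the comparisons of a pair of conditions, also called no member after adjustment, and no other gene. All calls below therefore rest on the block together with the spread shared over all 15 arrays. "Rose", "fell", "higher" and "lower" below are used of genes that passed with the block. Of 13 markers of synovial fibroblasts, 7 were at or above the median signal of the array, with VIM at percentile 98.7 and COL1A1 at percentile 91.2, while PRG4, the lubricin of the synovial lining, was at percentile 14.7. PDPN, PDGFRA, CDH11, FAP and VCAM1 also lay below the median, at percentiles 23.7 to 46.4. Among 6 leukocyte, 3 endothelial and 4 epithelial markers, 1 leukocyte and 1 epithelial gene reached the median, CD68 at percentile 84.3 and KRT18 at percentile 94.8.

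Every member was above the median signal of every array, the lowest at percentile 50.1. Signals of different genes come from different probes and are not compared as levels. Many clusters held exactly equal signals on different arrays of an experiment, which leaves a difference of 0. This was so in 30 of 129 pairs of a member and an experiment and touched 19 members, of which E2F2 had equal values in all 3 experiments.

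Over all 5 conditions, 22 of the 43 members differed by limma's moderated F test, beside 25% of all genes tested. They were 17 of the 22 S-phase genes and 5 of the 21 mitotic genes (CCNB1, FOXM1, CDC20, CENPE and KIF20A). The S-phase genes that did not pass were MCM7, CDC6, CDC45, GINS1 and E2F1. The distance between the highest and the lowest condition mean was 0.86 log2 units for CCND1, 0.78 for CENPE, 0.73 for RRM2, 0.69 for CDT1 and 0.66 for CCNE2. It was 0.26 or less in the 16 mitotic genes that did not pass, among them CDK1, the kinase that drives entry into mitosis, at 0.16 and the proliferation marker MKI67 at 0.23.

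**Figure D1:**
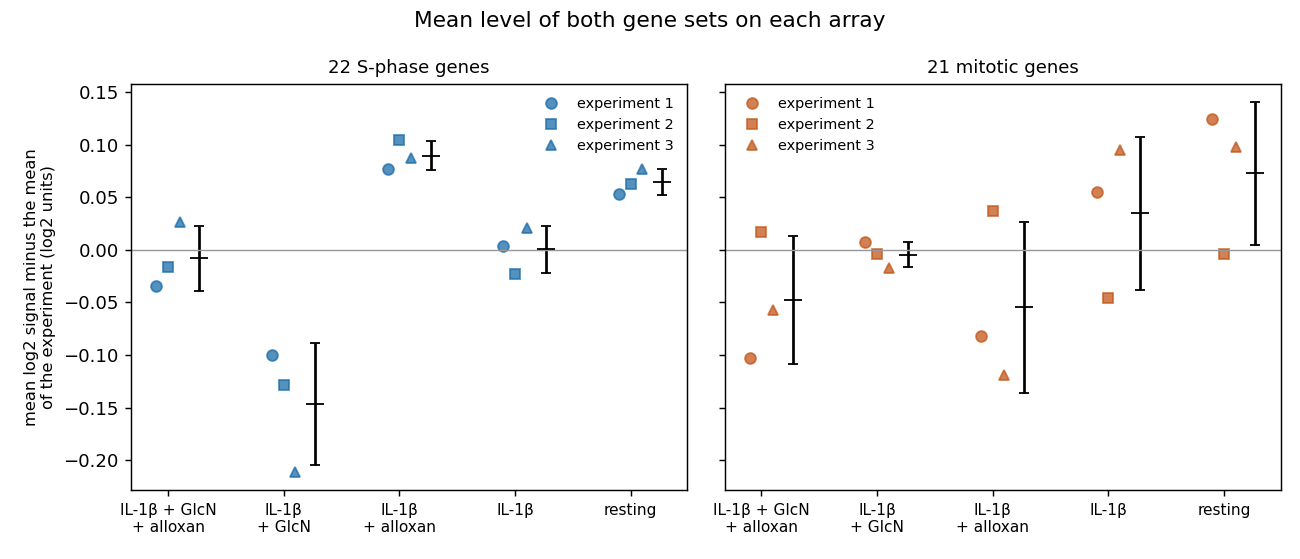
Mean log2 signal of the 22 S-phase genes (left) and of the 21 mitotic genes (right) on each array, after subtracting the mean of the 5 arrays of its experiment, with the 5 conditions along the horizontal axis, 1 symbol per experiment and bars for the mean ± SD of 3 arrays. In every experiment the S-phase mean was lowest in cells given GlcN without alloxan, while the mitotic means of the conditions overlapped.

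The mean of the 22 S-phase genes separated GlcN without alloxan, and alloxan without GlcN, from IL-1β alone within every experiment. Relative to the mean of its experiment it was -0.10, -0.13 and -0.21 with GlcN in experiments 1, 2 and 3, the lowest of the 5 conditions each time. With alloxan it was 0.08, 0.10 and 0.09, the highest each time, and resting cells came next, with 0.05, 0.06 and 0.08. With both agents it was -0.03, -0.02 and 0.03, against 0.00, -0.02 and 0.02 with IL-1β alone. The means with both agents overlapped those of IL-1β and lay between those of the other 2 treatments.

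The mitotic mean did not order the conditions in the same way. With GlcN it was 0.01, 0.00 and -0.02, and with alloxan it was -0.08, 0.04 and -0.12. With IL-1β alone it was 0.06, -0.05 and 0.10, so in experiment 2 the alloxan array was above the IL-1β array and in experiments 1 and 3 below it. In resting cells it was 0.12, 0.00 and 0.10, the highest of the 5 conditions in experiments 1 and 3.

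Set against IL-1β, the S-phase mean minus the mitotic mean was -0.11 ± 0.05 log2 units with GlcN (SD, n = 3 experiments), and negative in 3 of 3. With alloxan it was 0.18 ± 0.12 and positive in 3 of 3, and with both agents 0.07 ± 0.11 and positive in 2 of 3. These 3 values share the IL-1β arrays. Cells given both agents, set against those given GlcN, had a difference of 0.18 ± 0.09, and set against those given alloxan one of -0.10 ± 0.02, each with the same sign in 3 of 3 experiments. The median difference of all genes tested was within 0.02 of 0 in all these comparisons. No p is given for these means, since the members were chosen with earlier results of these data known and genes are not replicates. In RNA of a whole culture, fewer cells in a phase of the cycle and less RNA per cell cannot be told apart.

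**Figure D2:**
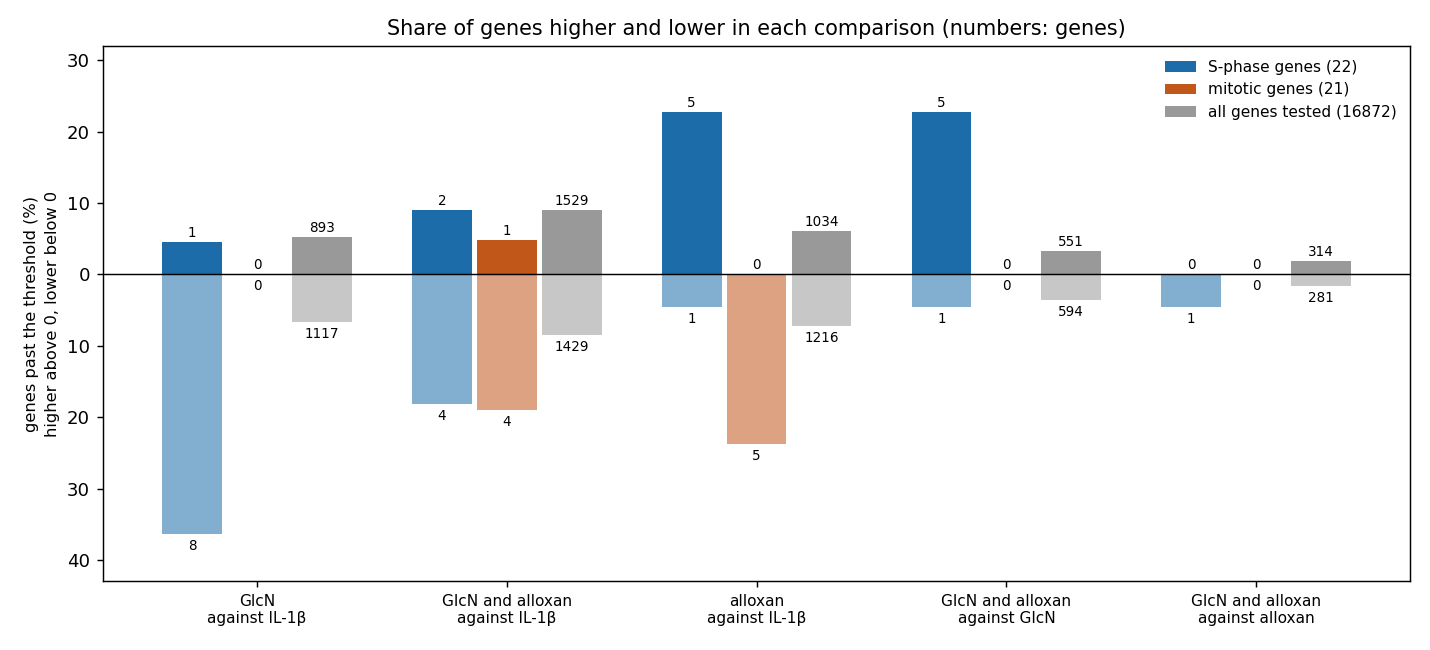
Share of the 22 S-phase genes, the 21 mitotic genes and all 16872 genes tested that passed the threshold in each comparison, in percent, with higher genes drawn above 0 and lower genes below 0 and the number of genes at each bar. The tallest lower bar is that of the S-phase genes with GlcN, 8 of 22, and none of the 21 mitotic genes passed with GlcN.

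The promoters of both gene sets differed in how often they carried certain letters, and the sequences of 6 members that moved are printed as examples. RefSeq windows of 300 bases around the start (GRCh38.p14) were at hand for 34 of the 43 members and were searched on both strands. TTGGCGC was taken as the first form of an E2F element, TTCCCGC as the second, TTGCCGC as the third and TTCGCGC as the fourth. TTTGAA was taken as the first form of a CHR element and TTCGAA as the second, and CCAAT as the CCAAT box. E2F letters stood in the windows of 15 of 18 S-phase genes (83.3%) and of 3 of 16 mitotic genes (18.8%), beside 20.5% of 15843 protein-coding genes. CHR letters stood in 2 of 18 S-phase genes (11.1%) and in 11 of 16 mitotic genes (68.8%), beside 17.5%. CCAAT, the shortest, was in 72.2% and 87.5%, beside 42.1%. The lines give the 160 bases before the start, 5′ to 3′, with all matches in capitals.
CDT1, chr16:88803629-88803788, plus strand, 2 E2F matches: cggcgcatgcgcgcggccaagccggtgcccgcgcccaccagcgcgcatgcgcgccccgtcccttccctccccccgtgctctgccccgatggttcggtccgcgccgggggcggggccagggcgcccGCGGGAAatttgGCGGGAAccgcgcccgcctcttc
MCM6, chr2:135876444-135876603, minus strand, 4 E2F matches that overlap in pairs and 2 CCAAT matches: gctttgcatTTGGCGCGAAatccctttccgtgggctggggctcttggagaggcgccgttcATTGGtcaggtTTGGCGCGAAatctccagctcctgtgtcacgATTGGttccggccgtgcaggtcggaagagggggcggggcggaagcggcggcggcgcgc
POLA1, chrX:24693758-24693917, plus strand, 2 E2F matches and 1 CCAAT match: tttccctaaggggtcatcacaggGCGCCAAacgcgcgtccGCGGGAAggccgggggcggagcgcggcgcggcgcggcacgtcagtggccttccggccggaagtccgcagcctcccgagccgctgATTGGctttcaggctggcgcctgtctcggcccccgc
CDC20, chr1:43358821-43358980, plus strand, 1 CHR match between 2 CCAAT matches: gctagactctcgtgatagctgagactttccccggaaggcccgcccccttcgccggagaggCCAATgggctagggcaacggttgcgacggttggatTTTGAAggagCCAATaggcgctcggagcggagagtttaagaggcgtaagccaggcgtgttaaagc
KIF20A, chr5:138178952-138179111, plus strand, 2 CCAAT matches: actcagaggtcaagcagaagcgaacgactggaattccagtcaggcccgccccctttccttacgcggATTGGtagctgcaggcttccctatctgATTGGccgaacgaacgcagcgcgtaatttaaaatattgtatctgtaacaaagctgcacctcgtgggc
CENPE, chr4:103198344-103198503, minus strand, no match: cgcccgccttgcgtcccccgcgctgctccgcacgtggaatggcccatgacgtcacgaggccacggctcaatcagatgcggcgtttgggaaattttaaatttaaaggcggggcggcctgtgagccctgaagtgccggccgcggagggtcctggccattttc
Of the 3 mitotic genes printed, CDC20 alone has a CHR match, and CCAAT stands in printed genes of both sets. The 3 S-phase genes printed moved in different directions in these cells, CDT1 up and MCM6 and POLA1 down, as given next. A match of letters is a description of the window and no measure of binding. No other forms of these elements were searched, so a window without a match lacks only the letters listed.

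IL-1β against resting cells asks what the cytokine alone did. No member passed in limma, beside 0% of all genes. The methods' t-test gave none at an unadjusted p under 0.05, beside 2 of all 16872 genes. At an unadjusted p under 0.05, limma gave 2 members higher (CDC20 and E2F1) and 1 lower (MCM6), beside 491 higher and 486 lower of all genes. The difference was negative in 37 of 43 members, with a median of -0.05 log2 units, against 49% of all genes and a median of 0.00. All 12 licensing and helicase genes and all 5 fork genes had a negative difference. The S-phase mean was -0.06 ± 0.02 (SD) and the mitotic mean -0.04 ± 0.03, each negative in 3 of 3 experiments.

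With GlcN added to IL-1β, genes of S-phase entry and of nucleotide supply were lower, and none of the 21 mitotic members passed. Of the 43 members 8 fell and 1 rose, all 9 of them S-phase genes, beside 6.62% of all genes lower and 5.29% higher. The 8 were CCND1, RRM2, MCM6, CCNE1, MCM4, CCNE2, PCNA and RRM1, and the 1 that rose was CDT1. The median difference was -0.12 log2 units over the S-phase genes and -0.02 over the mitotic genes, against 0.01 over all genes. Differences were below 0 in like shares of both sets, 16 of 22 S-phase genes (72.7%) and 15 of 21 mitotic genes (71.4%), beside 45.9% of all genes. Of the 21 mitotic genes none passed in limma, and 3 (14.3%) had an unadjusted p under 0.05, a smaller share than the 24.8% of all genes. The methods' t-test gave none of the 21 at an unadjusted p under 0.05. It also gave none of the 22 S-phase genes, and 51 of all 16872 genes, so it could not tell the sets apart.

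CCND1 encodes cyclin D1, which starts the phosphorylation of the retinoblastoma protein. Its log2 signal was 8.25, 9.32 and 9.99 with GlcN in experiments 1, 2 and 3, against 8.78, 10.03 and 11.26 with IL-1β alone. The signal was lower with GlcN in each experiment, most in experiment 3. The difference was -0.84 (95% interval -1.15 to -0.52, adjusted p = 0.00341), or 0.56 times the IL-1β level. CCNE1 and CCNE2 encode the E-type cyclins that bind CDK2. CCNE2 had 9.96, 10.34 and 10.64 with GlcN, against 10.08, 10.61 and 11.04 with IL-1β (-0.26, adjusted p = 0.0162). CCNE1, with some equal signals between arrays, had 6.19, 7.54 and 7.70, against 6.36, 7.83 and 8.31 (-0.36, adjusted p = 0.0279). Both cyclins were lower in every experiment, by the least in experiment 1.

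RRM2 and RRM1 encode the small and the large subunit of ribonucleotide reductase, which makes deoxynucleotides. RRM2 had 8.66, 9.37 and 9.80 with GlcN, against 9.24, 10.02 and 10.31 with IL-1β, a drop of like size in each experiment. The difference was -0.58 (95% interval -0.84 to -0.31, adjusted p = 0.00966), 0.67 times. RRM1 differed by -0.15 (adjusted p = 0.033). PCNA, the sliding clamp of the replicative polymerases, had 10.24, 10.95 and 10.77 with GlcN, against 10.53, 11.17 and 11.04 with IL-1β (-0.26, adjusted p = 0.0432). The other fork genes did not pass: TYMS, thymidylate synthase, differed by -0.18 (adjusted p = 0.0655) and POLA1, the catalytic subunit of DNA polymerase alpha, by 0.02 (adjusted p = 0.932).

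In the MCM helicase, GlcN lowered 2 of the 6 core subunits. MCM4 had 10.17, 11.30 and 11.43 with GlcN, against 10.43, 11.55 and 11.87 with IL-1β. MCM6 had 8.56, 9.66 and 9.71, against 8.93, 9.85 and 10.22. Both were lower in each experiment, by -0.32 for MCM4 (adjusted p = 0.00113) and -0.36 for MCM6 (adjusted p = 0.0136). MCM2, MCM3, MCM5 and MCM7 lay at -0.18 to -0.05 and did not pass. CDT1, which loads the helicase onto origins, went the other way, with 8.51, 9.72 and 9.82 with GlcN against 8.06, 9.41 and 9.52 with IL-1β (0.35, 95% interval 0.19 to 0.51, adjusted p = 0.0102). CDC6, its partner in loading, was at 0.24 and did not pass (adjusted p = 0.165).

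The calls with GlcN rested on few arrays. MCM4 alone passed in all 18 fits that left out 1 array or 1 experiment, and CCND1 also passed without each single array. On all arrays 8 members were lower. The count was 5 without IL-1β array 1, IL-1β array 2 or GlcN array 2 and 4 without GlcN array 3. Such counts can include members not called on all arrays. Of the 9 calls, 4 stood without GlcN array 2 and 4 without GlcN array 3. Without experiment 1, 2 or 3 the count of lower members was 4, 1 and 2. CDT1 no longer passed without GlcN array 2 or without experiment 1 or 2.

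Alloxan added to IL-1β raised some S-phase genes and lowered some mitotic genes. Of the 43 members 5 rose, beside 6.13% of all genes, and all 5 were S-phase genes (CDT1, CCNE2, TYMS, MCM10 and E2F2). Another 6 fell, beside 7.21% of all genes: 5 mitotic genes (CENPE, KIF20A, BUB1, CCNB1 and CDC20) and POLA1. The median difference was 0.10 over the S-phase genes and -0.11 over the mitotic genes, against 0.02 over all genes. Differences were above 0 in 17 of 22 S-phase genes (77.3%, beside 56.3% of all genes) and below 0 in 13 of 21 mitotic genes (61.9%, beside 41.6%).

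CDT1 had 8.77, 9.97 and 10.16 with alloxan, against 8.06, 9.41 and 9.52 with IL-1β, 1.55 times (0.63, 95% interval 0.47 to 0.79, adjusted p = 3.5e-04). CCNE2 had 10.44, 11.07 and 11.25, against 10.08, 10.61 and 11.04 (0.34, adjusted p = 0.00373). Both were higher with alloxan in every experiment. MCM10, which activates the loaded helicase, differed by 0.20 (adjusted p = 0.0183) and TYMS by 0.23 (adjusted p = 0.0233). E2F2, whose signals were partly equal between arrays, differed by 0.14 (adjusted p = 0.0434). POLA1 had 8.10, 9.11 and 9.18 with alloxan, against 8.52, 9.37 and 9.55 with IL-1β, lower in each experiment (-0.35, 95% interval -0.50 to -0.20, adjusted p = 0.00588). CCND1 lay at 0.01 with alloxan (95% interval -0.31 to 0.32).

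Of the mitotic genes, CENPE showed the largest difference. It encodes the kinesin that moves chromosomes to the spindle equator, and it had 8.45, 9.42 and 9.79 with alloxan, against 9.27, 9.72 and 10.74 with IL-1β. The signal was lower in each experiment, least in experiment 2 (-0.69, 95% interval -0.93 to -0.44, adjusted p = 0.0027). KIF20A, a kinesin of the cleavage furrow, had 10.90, 11.96 and 12.09, against 11.26, 12.07 and 12.49 (-0.29, adjusted p = 0.0383). CCNB1, the B-type cyclin that activates CDK1, had 10.03, 10.86 and 11.12, against 10.30, 11.01 and 11.41 (-0.24, adjusted p = 0.0186). CDC20, the activator of the anaphase-promoting complex, had 11.10, 12.22 and 12.39, against 11.33, 12.37 and 12.61 (-0.20, adjusted p = 0.00682). All 4 were lower with alloxan in every experiment. BUB1, a spindle checkpoint kinase, had 9.31, 10.38 and 10.56, against 9.58, 10.38 and 11.06, next to no difference in experiment 2 (-0.26, adjusted p = 0.0469). PLK1, TOP2A and MKI67 lay at -0.14, -0.10 and -0.20 and did not pass, each with experiment 2 above 0.

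CDT1 passed in all 18 fits that left out an array or an experiment, and CCNE2, POLA1, CDC20 and CENPE also passed without each single array. BUB1 was lost in 13 of the 15 fits without 1 array and E2F2 in 10. The 5 higher members became 2 without alloxan array 1, alloxan array 2 or IL-1β array 2, and 1, 1 and 2 without experiments 1, 2 and 3. The 6 lower members became 3 without IL-1β array 1, alloxan array 1 or alloxan array 3, and 0 without experiment 1 or 3.

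Both agents together, against IL-1β, gave 3 members higher and 8 lower, beside 9.06% of all genes higher and 8.47% lower. CDT1, CCNE2 and FOXM1 rose. CCND1, MCM6, CENPE, KIF20A, POLA1, CCNB1, CDC20 and MCM4 fell. The median difference was 0.01 over the S-phase genes and -0.10 over the mitotic genes, against 0.00 over all genes. The comparisons with GlcN, with alloxan and with both agents share the IL-1β arrays.

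CDT1 had 8.78, 9.88 and 10.40 with both agents, against 8.06, 9.41 and 9.52 with IL-1β (0.69, 95% interval 0.53 to 0.85, adjusted p = 8.7e-05). CCND1 had 8.46, 9.39 and 10.18, against 8.78, 10.03 and 11.26 (-0.68 ± 0.14, SE, adjusted p = 0.00673). MCM6 had 8.33, 9.51 and 9.88, against 8.93, 9.85 and 10.22 (-0.43, adjusted p = 0.00327). Each of these 3 genes kept its sign in all 3 experiments. FOXM1, a transcription factor of the mitotic programme, had 11.26, 12.41 and 12.61, against 11.04, 12.07 and 12.43 (0.25, adjusted p = 0.00411), while CCNB1, a known target of it, lay at -0.25 (adjusted p = 0.0118). RRM2, lower with GlcN, did not pass with both agents, at -0.61, -0.12 and 0.11 in the 3 experiments (adjusted p = 0.303).

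CDT1 and CCNE2 passed in all 18 fits that left out an array or an experiment, and CCND1, CDC20, FOXM1, MCM6 and POLA1 also passed without each single array. The 8 lower members became 4 without IL-1β array 1 or array 1 of both agents, 5 without IL-1β array 3, and 2, 5 and 1 without experiments 1, 2 and 3.

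**Figure D3:**
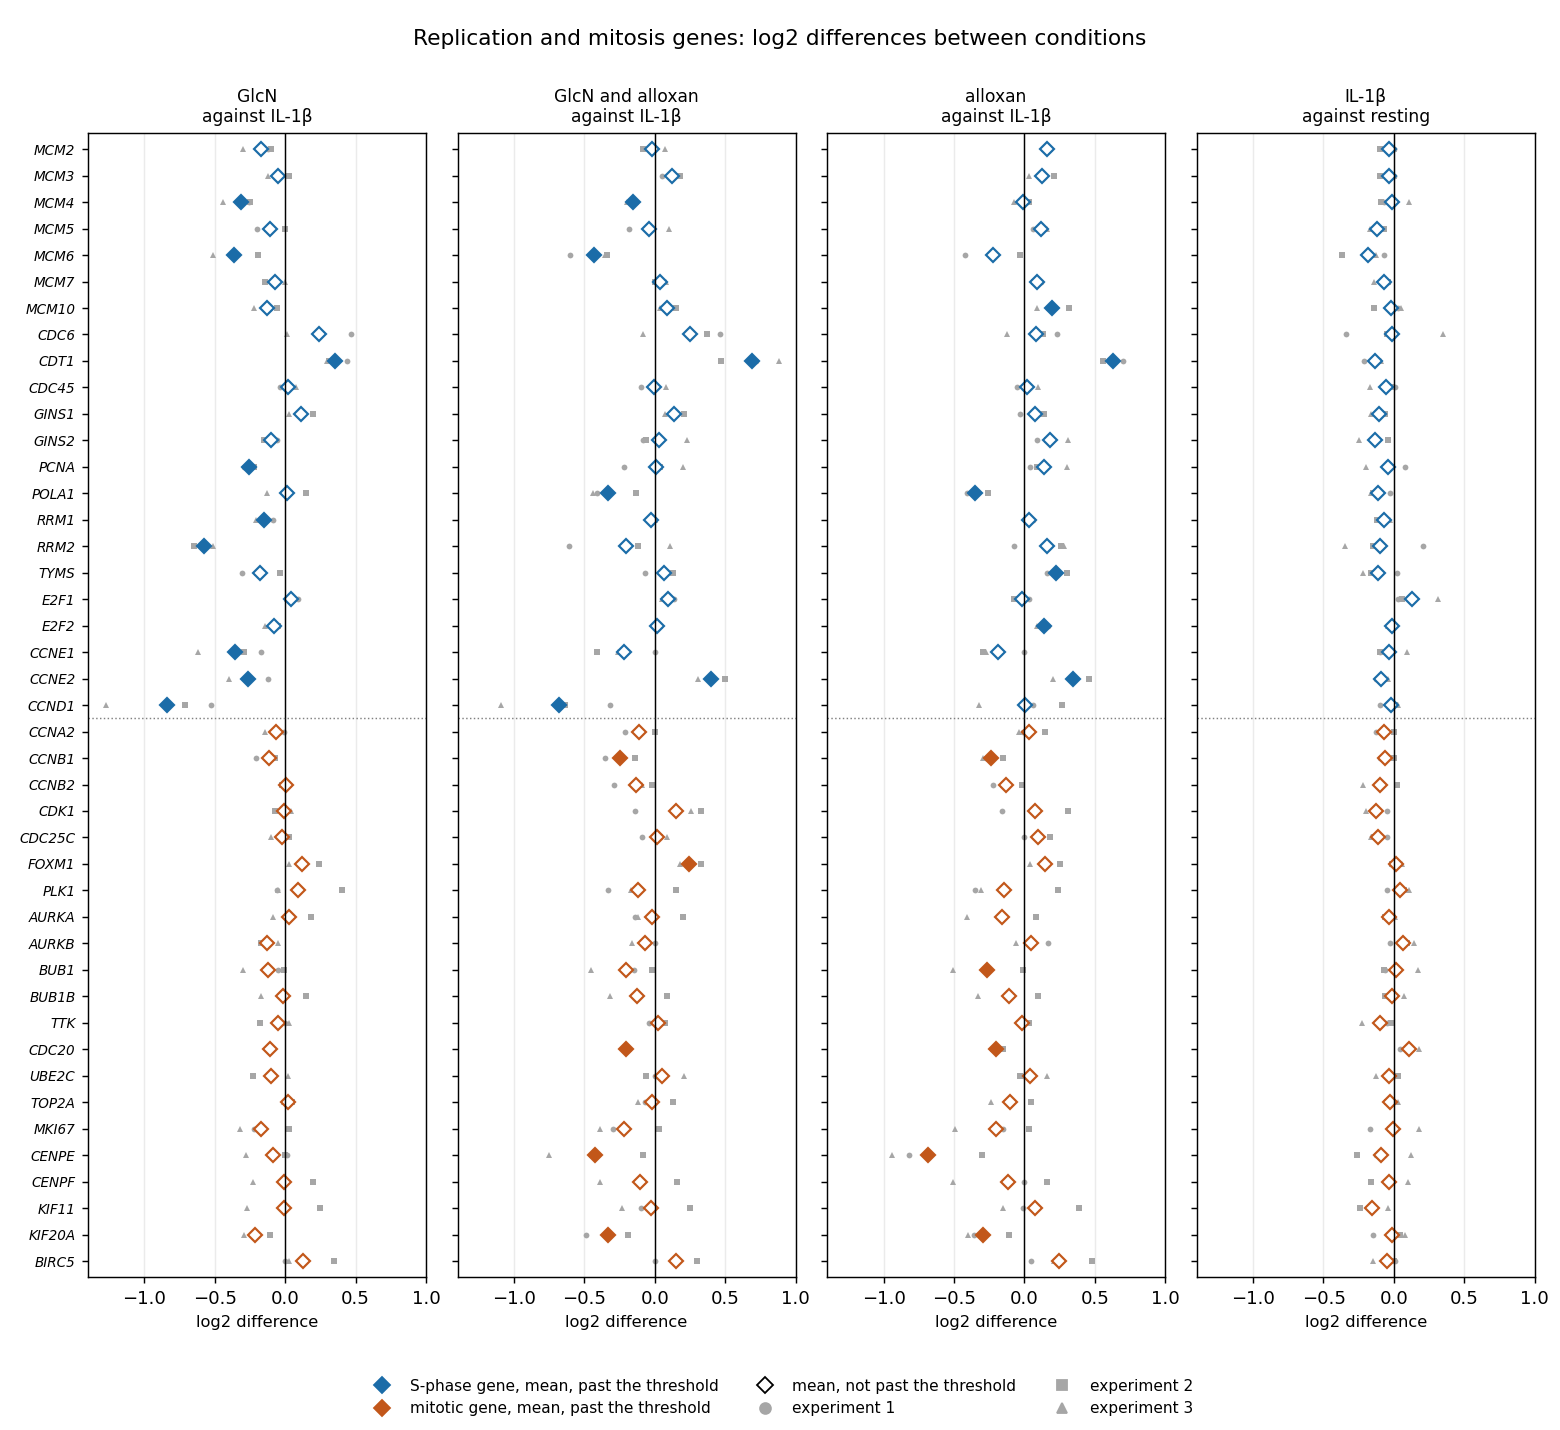
Log2 difference of each member in 4 comparisons, with S-phase genes above the dotted line and mitotic genes below it, diamonds for the mean of 3 experiments (filled where the gene passed the threshold) and grey symbols for the single experiments. Filled diamonds lie left of 0 for 8 S-phase genes and for none of the 21 mitotic genes with GlcN, on both sides of 0 with alloxan, and nowhere for IL-1β against resting cells.

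Alloxan added to cells that had GlcN was measured by setting both agents against GlcN. Here 5 members rose (CCNE2, CDT1, TYMS, MCM10 and MCM3), beside 3.27% of all genes, and 1 fell (POLA1), beside 3.52%, and all 6 were S-phase genes. The median difference was 0.13 over the S-phase genes, with 19 of 22 above 0, and -0.05 over the mitotic genes, against -0.01 over all genes. CCNE2 had 10.47, 11.10 and 11.35 with both agents, against 9.96, 10.34 and 10.64 with GlcN, higher by a wide margin in each experiment (0.66, 95% interval 0.53 to 0.79, adjusted p = 2.4e-04). CDT1 differed by 0.34 (adjusted p = 0.0206), TYMS by 0.24 (adjusted p = 0.0272) and MCM10 by 0.21 (adjusted p = 0.0207). POLA1 had 8.11, 9.24 and 9.11 with both agents, against 8.54, 9.52 and 9.43 with GlcN (-0.34, adjusted p = 0.0117).

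None of the 21 mitotic genes passed in this comparison by limma, and the 5 (23.8%) with an unadjusted p under 0.05 were near the 22.3% of all genes. The methods' t-test gave none of the 21 and none of the 22 S-phase genes at an unadjusted p under 0.05, beside 7 of all 16872 genes. CENPE was at -0.34 (95% interval -0.59 to -0.09, adjusted p = 0.106). CCNE2 passed in all 18 fits that left out an array or an experiment. On all arrays 5 members were higher. The count was 2 without array 2 of GlcN or of both agents, 1 without array 3 of either, and 8 without IL-1β array 3. It was 2, 1 and 1 without experiments 1, 2 and 3, and only 1 of the 6 calls stood in each of those fits. POLA1 no longer passed without GlcN array 2, array 3 of both agents, or any 1 experiment.

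GlcN added to cells that had alloxan was measured by setting both agents against alloxan. Only CCND1 passed, lower, beside 1.67% of all genes lower and 1.86% higher. It had 8.46, 9.39 and 10.18 with both agents, against 8.84, 10.30 and 10.95 with alloxan, lower in each experiment (-0.69 ± 0.14, SE, adjusted p = 0.0239). The S-phase genes had a median difference of -0.08 and the mitotic genes one of 0.00, against -0.01 over all genes. At an unadjusted p under 0.05 were 10 S-phase genes, all lower (45.5%, beside 8.81% of all genes), among them MCM4 (-0.15), E2F2 (-0.12), RRM2 (-0.37) and MCM2 (-0.18), and 2 mitotic genes, 1 in each direction. The call of CCND1 was lost without any of the 3 alloxan arrays, without array 2 or 3 of both agents, and without any 1 experiment, while its difference stayed between -0.84 and -0.58.

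**Figure D4:**
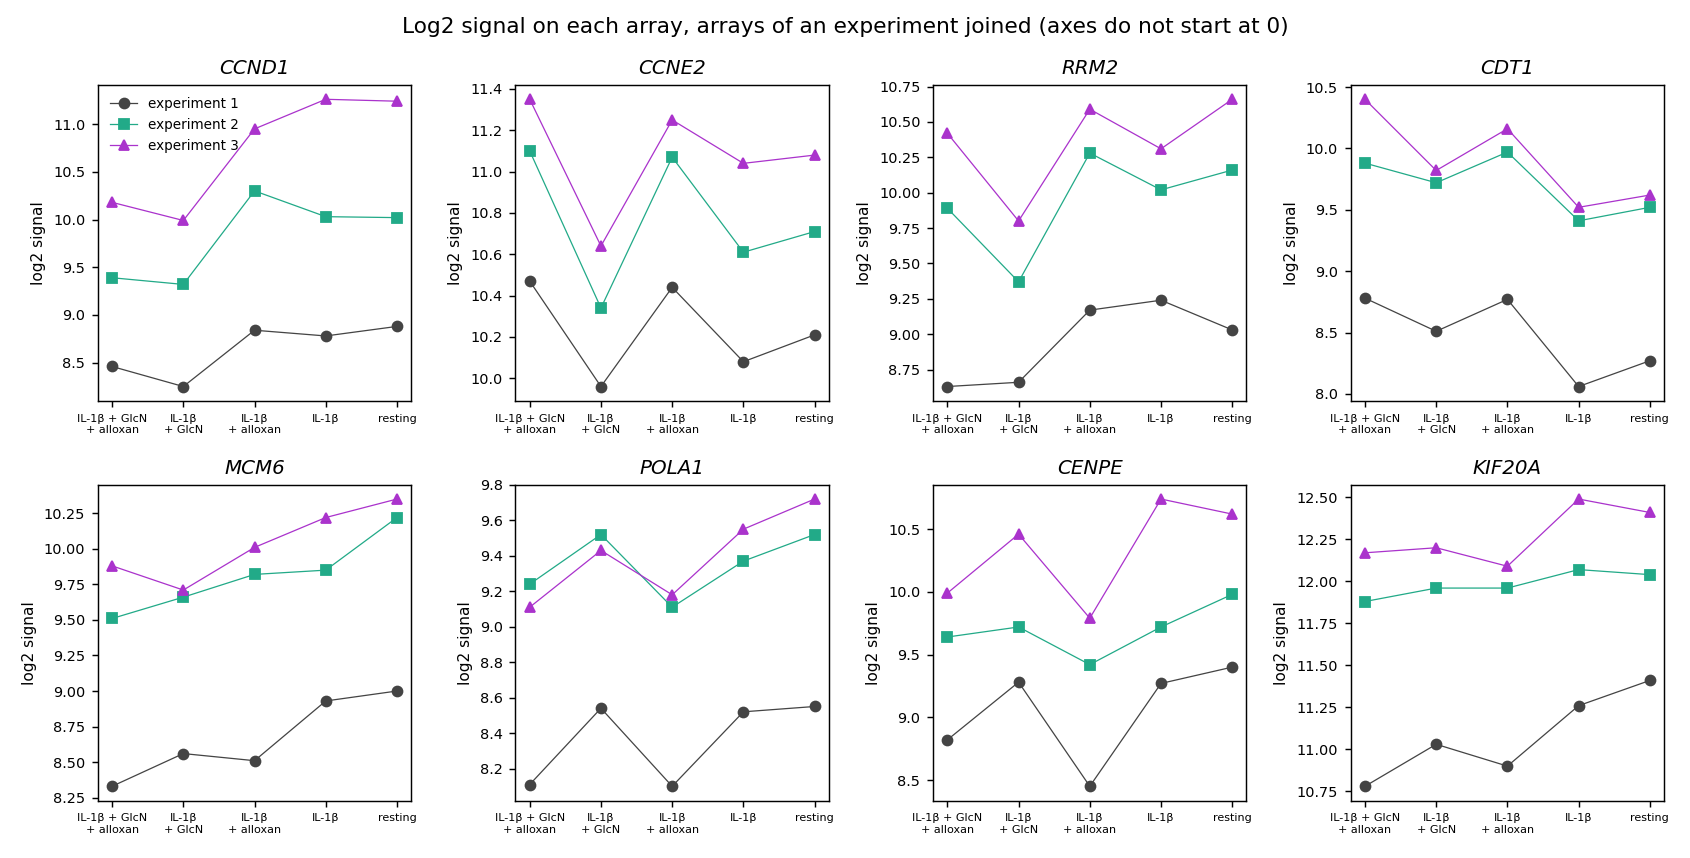
Log2 signal of 8 members on each array, with the 5 conditions along the horizontal axis, 1 line per experiment and vertical axes that do not start at 0. CCND1 is low in both conditions with GlcN, CDT1 is high in all 3 treated conditions, CCNE2 is lowest with GlcN and high in both conditions with alloxan, and POLA1 and CENPE are low in both conditions with alloxan.

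The effect of alloxan was thus measured without GlcN and with it, on different arrays of the same experiments. Of the 6 S-phase genes called without GlcN and the 6 called with it, 5 were called in both with the same sign (83.3% of each): CDT1, CCNE2, TYMS, MCM10 and POLA1. Over all genes, 651 were called in both with the same sign, 28.9% of those called without GlcN and 56.9% of those called with it. Of the 5 mitotic genes called without GlcN none was called with it. Differences had the same sign in both in 18 of 22 S-phase genes and 18 of 21 mitotic genes, beside 62.3% of all genes.

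The effect of GlcN was likewise measured without alloxan and with it. CCND1 was called in both, 1 of the 9 members called without alloxan and the only 1 called with it. Over all genes 424 were called in both with the same sign, 21.1% of those called without alloxan and 71.3% of those called with it. The S-phase genes had the same sign in both in 20 of 22 cases, and the mitotic genes in 13 of 21, beside 58.5% of all genes.

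The interaction tests whether the effect of GlcN differed between cells with and without alloxan. No member passed in limma, beside 0.0711% of all genes (12), and the 4 with an unadjusted p under 0.05 (9.3%) were no more than the 11% of all genes. They were CCNE2 (0.32, 95% interval 0.13 to 0.51, adjusted p = 0.245), CDT1 (-0.29, 95% interval -0.52 to -0.06, adjusted p = 0.371), MCM4 (0.17) and CCNE1 (0.32). For CCNE2, GlcN gave -0.26 without alloxan and 0.06 with it, and for CDT1 it gave 0.35 without alloxan and 0.06 with it. For CCND1 it gave -0.84 without alloxan and -0.69 with it, and the interval of the interaction ran from -0.30 to 0.59. The methods' t-test was not run on the interaction. Hence a gene called with GlcN in cells without alloxan and not in cells with it is not shown to differ between them.

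Other genes of replication and mitosis were counted from lists of the known members of each process. With GlcN, 3 of 47 other replication genes fell and none rose, among them UHRF1 (-0.33, adjusted p = 0.00847) and ORC1, a subunit of the origin recognition complex (-0.26, adjusted p = 0.0114). Their median was -0.09, with 39 of 47 below 0. Of 57 other mitotic genes 5 fell and 1 rose, among them CDC25A (-0.31, adjusted p = 0.0088) and CCNF (-0.31, adjusted p = 0.0108). CDC25A was counted in this list, though it is a phosphatase that activates CDK2, the kinase that E-type cyclins bind. The median over the 57 was -0.08, close to that of the replication list, with 40 of 57 below 0 (70.2%, beside 45.9% of all genes). The shares called lower, 6.38% and 8.77%, lay near the 6.62% of all genes.

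With alloxan, 6 of the 47 other replication genes rose and 3 fell (12.8% and 6.38%, beside 6.13% and 7.21% of all genes). GINS3, of the same complex as GINS1 and GINS2, rose (0.45, adjusted p = 0.00103), and PRIM2, the primase subunit that works with POLA1, fell (-0.38, adjusted p = 0.00151). Of the 57 other mitotic genes 4 rose and 6 fell (7.02% and 10.5%), among them CDCA5 (0.38, adjusted p = 0.00196) and the kinetochore gene CENPI (-0.62, adjusted p = 0.00116). The median difference with alloxan was 0.017 over the 47 and -0.046 over the 57, against 0.015 over all genes. With both agents against IL-1β the counts were 4 higher and 4 lower of 47 (8.51% each), and 3 higher and 8 lower of 57 (5.26% and 14%), beside 9.06% and 8.47% of all genes. Against GlcN they were 6 higher and 0 lower of 47 (12.8% higher), and 5 higher and 1 lower of 57 (8.77% and 1.75%), beside 3.27% and 3.52% of all genes, with CDC25A at 0.59 (adjusted p = 5.0e-04) and CDCA5 at 0.48 (adjusted p = 9.3e-04). Against alloxan 0 of 47 and 1 of 57 passed, beside 1.67% of all genes lower, and that gene, PKMYT1, was lower (-0.24, adjusted p = 0.0282). For the 47 replication genes, limma gave 2 lower and 0 higher there at an unadjusted p under 0.05. These were 4.26% and 0%, smaller shares than the 8.81% and 7.52% of all genes. The methods' t-test gave 0 of the 47, beside 15 of all 16872 genes.

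Among the regulators upstream, CDKN1A, the p21 inhibitor of cyclin-dependent kinases, differed in opposite directions with the agents. It was at -0.36 with GlcN (adjusted p = 0.00608) and at 0.88 with alloxan (adjusted p = 3.2e-05), each against IL-1β and each with the same sign in 3 of 3 experiments. With both agents it was at 0.22 against IL-1β (adjusted p = 0.0499), 0.58 against GlcN (adjusted p = 7.8e-04) and -0.66 against alloxan (adjusted p = 3.3e-04). Of the 7 inhibitors measured, 1 rose with alloxan (CDKN1A) and 2 fell (14.3% and 28.6%, beside 6.13% and 7.21% of all genes). The 2 that fell were CDKN3 and CDKN2B (-0.47 and -0.20, adjusted p = 0.00994 and 0.0447). Of 21 genes of pocket proteins, E2F and MuvB, 3 fell with GlcN (E2F8, CDK6 and CDK2; 14.3%, beside 6.62% of all genes), and with alloxan 3 rose and 2 fell (14.3% and 9.52%, beside 6.13% and 7.21%), shares that rest on few genes. E2F8, a repressor of the E2F family, was at -0.39 with GlcN against IL-1β (adjusted p = 0.00334) and at 0.57 with both agents against GlcN (adjusted p = 7.4e-04). RB1, the retinoblastoma gene, fell with alloxan (-0.37, adjusted p = 0.00785).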

How the data were processed

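Values were measured on 15 arrays of MH7A cells, 3 for each of 5 conditions. The authors made the deposited log2 values with the robust multiarray average (RMA) of the Affymetrix Expression Console, per the labels (versions not given in the sources used here). The array medians lie close together within an experiment and further apart between the 3 experiments, so RMA appears to have been run per experiment. Equal signals on at least 2 arrays of an experiment occur in 16944 to 19610 of 33297 transcript clusters. The number of arrays limits the precision, since array signals carry no read depth.

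Of the clusters, 19460 had 1 gene symbol, 1754 several and 12083 none listed. Symbols were brought up to date through gene IDs (19429 clusters) with the RefSeq table of GRCh38.p14. The cluster with the highest mean stood for its gene (BIRC5 has 2 clusters, every other member 1). Genes at or above the 20th percentile of the array on at least 3 arrays were kept.

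Differences were tested with limma 3.58.1 in R 4.3.3 on the deposited values, with 5 condition means and the experiment number of the titles as a block. p-values were adjusted by Benjamini-Hochberg over 16872 genes. The numbers mark repeats of the whole experiment. Deviations from the condition means correlated at 0.621 to 0.848 between arrays of one number (30 pairs) and at -0.656 to -0.068 between numbers (60 pairs). Subtracting the condition means by itself pushes the correlations between numbers towards negative values. RMA run per experiment could alone make arrays of one number correlate. These correlations therefore cannot decide whether the numbers mark repeats, which rests on the titles. The study's methods name an unpaired t-test, which was run as an alternative, like fits without the block, other scalings, filters and left-out arrays. No 2 arrays were duplicates (highest correlation 0.996, smallest median absolute difference 0.0539). The fit was tested on simulated data. Members and gene lists were chosen with earlier results of these data known. Every member may be named, and of each other list up to 4 genes a comparison with the smallest p past the threshold. Promoter sequences are those of RefSeq. The authors' own fold changes were not used.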

Additional observations from a re-analysis of the deposited data

How the results depend on the processing

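No member call of the 5 comparisons of treated cells changed direction under any alternative. Without the replicate block the members called were 0 in every comparison and 0 over all 5 conditions. They were also 0 in the comparisons of 2 conditions and in the interaction with the replicate block in a fit of only the groups compared. In the comparisons of 2 conditions they were 0 by the methods' t-test, both after Benjamini-Hochberg adjustment and at an unadjusted p under 0.05 with 1.5-fold. Over all genes with GlcN against IL-1β, 2010 were called with the block on all arrays, 4 without the block and 1 with the block on only the groups compared. With alloxan the counts were 2250, 0 and 0, and with both agents 2958, 1 and 276. Quantile normalization of all arrays lost 2 of the 9 calls with GlcN and 1 of the 11 with both agents against IL-1β. Equal medians, an intensity trend with robust moderation, and no filter on dim genes each lost 1 of the 11 calls with alloxan. The 50th percentile filter and the mean over clusters lost none. The S-phase minus mitotic difference of both agents against alloxan was -0.087 with medians over genes, against -0.104 with means.

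Leaving out 1 array or 1 experiment gave 0 to 2 members higher and 1 to 9 lower with GlcN, 1 to 6 higher and 0 to 6 lower with alloxan, and 2 to 4 higher and 1 to 9 lower with both agents, each against IL-1β. It gave 1 to 8 higher and 0 to 1 lower with both agents against GlcN, 0 to 1 lower against alloxan, and 6 to 22 members over all 5 conditions. The S-phase minus mitotic difference ran from -0.13 to -0.09 with GlcN, 0.13 to 0.25 with alloxan and 0.03 to 0.14 with both agents against IL-1β. It ran from 0.13 to 0.23 against GlcN, from -0.11 to -0.10 against alloxan, from -0.05 to -0.01 for IL-1β against resting cells, and from -0.02 to 0.02 for the interaction. Of the 38 calls, 15 stood without each single array and 5 also without each experiment.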

Other observations

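BIRC5, the survivin of the chromosomal passenger complex, was the only member with a second cluster. The brighter one, used here, had 10.04, 10.10, 10.22 and 9.74 in experiment 2 with both agents, GlcN, alloxan and IL-1β alone. The dimmer one had 6.45 there on all of these arrays at 2 decimals, and 5.54 on all 5 arrays of experiment 1, and in experiment 3 it had 7.68, 7.39, 7.52 and 7.38 in the same order.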
